A study of Homo sapiens with 6 samples.

Results

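Collagen genes were followed in RNA sequencing of cells labelled hepatoblasts, given a perfluorinated acid or vehicle. Members were chosen by name alone, as every gene symbol made of COL, a number, A and a number, which found 44 of the 60623 genes in the files: 11 fibrillar, 8 of basement membranes, 5 of type VI and 20 others. Of these, 31 reached 1 TPM (a level given as a share of all transcripts of a library, corrected for gene length) in 3 or more of the 6 libraries. The starting cells were H9, an established human embryonic stem line, and the labels call the product hepatoblasts at day 19 and give liver as the tissue. Vehicle cultures with 0.1% DMSO gave 3 libraries, and cultures with HFPO-TA, the trimer acid of hexafluoropropylene oxide, gave the other 3. The HFPO-TA dose is a 10 whose unit is garbled in the labels, the length of exposure is not given in the sources used here, and a vehicle is recorded only for the DMSO libraries. All libraries come from the same cell line, and the labels do not say that replicates were grown separately. The p-values therefore reflect library-to-library spread, and this may be technical.

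Collagens are secreted or membrane proteins whose chains wind around each other into a triple helix, which requires glycine at every turn of a short repeat. Fibrillar collagens form the ropes of connective tissue, type IV collagens form the sheet under epithelia and vessels, and type VI forms beaded filaments between cells and fibrils. In adult liver, stellate cells and portal fibroblasts make most fibrillar collagen, and its build-up is the hallmark of fibrosis, while endothelial cells and hepatocytes add basement membrane collagens. Assembly needs hydroxylases and chaperones in the endoplasmic reticulum, proteinases that trim the secreted chains and oxidases that crosslink them.

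Several chains that assemble together are also neighbours in the genome. In GENCODE 29 (GRCh38) COL4A1 (chromosome 13, 110148963 to 110307233, minus strand) and COL4A2 (110305812 to 110513209, plus strand) are transcribed away from each other and overlap at their 5′ ends, with no exonic base in common. COL4A6 (chromosome X, 108155607 to 108439497) and COL4A5 (108439844 to 108697545) are likewise head to head, with 346 bases between them, and so are COL4A4 and COL4A3 on chromosome 2, with 111 bases between them. COL6A1 and COL6A2 lie on the same strand of chromosome 21, 93046 bases apart, and COL3A1 and COL5A2 lie tail to tail on chromosome 2, 19149 bases apart. The RefSeq start sites of COL4A1 and COL4A2 (GRCh38.p14) are 127 bases apart, without the overlap given by GENCODE 29. Those of COL4A6 and COL4A5 are 380 bases apart. The windows from 250 bases before to 50 after each start overlap on opposite strands within each of these 2 pairs and are printed for both. Those of COL4A4 and COL4A3, with starts 419 bases apart, also overlap, by 82 bases, and are not printed. Capitals mark CCAAT and GGGCGG on either strand (TATAAA, also searched, was in none of the 4 printed).
COL4A1, chr13:110307108-110307407, minus strand: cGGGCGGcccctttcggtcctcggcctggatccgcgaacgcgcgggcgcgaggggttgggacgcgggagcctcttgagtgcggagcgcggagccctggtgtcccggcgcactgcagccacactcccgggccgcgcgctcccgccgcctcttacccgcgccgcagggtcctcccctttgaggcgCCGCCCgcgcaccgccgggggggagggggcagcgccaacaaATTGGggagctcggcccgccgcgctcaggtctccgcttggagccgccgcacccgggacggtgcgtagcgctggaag
COL4A2, chr13:110307034-110307333, plus strand: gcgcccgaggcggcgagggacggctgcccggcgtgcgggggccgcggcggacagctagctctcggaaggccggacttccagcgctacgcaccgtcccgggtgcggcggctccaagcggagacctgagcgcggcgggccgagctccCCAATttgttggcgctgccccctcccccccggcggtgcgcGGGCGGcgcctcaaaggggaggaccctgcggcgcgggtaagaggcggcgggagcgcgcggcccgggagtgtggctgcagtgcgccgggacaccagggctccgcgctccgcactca
COL4A5, chrX:108439588-108439887, plus strand: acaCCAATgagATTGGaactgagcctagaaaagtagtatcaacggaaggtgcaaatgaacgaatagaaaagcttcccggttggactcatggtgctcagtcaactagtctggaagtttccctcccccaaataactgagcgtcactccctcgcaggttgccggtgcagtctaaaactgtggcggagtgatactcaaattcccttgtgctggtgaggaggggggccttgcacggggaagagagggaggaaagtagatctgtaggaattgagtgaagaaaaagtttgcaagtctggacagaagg
COL4A6, chrX:108439409-108439708, minus strand: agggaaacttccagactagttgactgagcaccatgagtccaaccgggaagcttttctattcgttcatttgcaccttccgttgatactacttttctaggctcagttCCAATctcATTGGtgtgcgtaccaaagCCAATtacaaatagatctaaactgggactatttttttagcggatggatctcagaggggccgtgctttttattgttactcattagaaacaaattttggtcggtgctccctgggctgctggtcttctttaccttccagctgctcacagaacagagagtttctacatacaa
The windows of COL4A1 and COL4A2 share 226 bases and those of COL4A5 and COL4A6 share 121. GC content was 76.7% and 77.7% for the first pair and 49.3% and 43.7% for the second. Windows were found for 22 of the 31 collagen genes above 1 TPM, but not for COL3A1, COL1A1, COL1A2 or COL2A1. Of these 22, 6 held CCAAT, 15 GGGCGG and 4 TATAAA, against 35.7%, 44.6% and 11.95% of all 27305 windows. The CCAAT windows include COL4A1, COL4A2, COL4A5 and COL4A6, and overlapping windows hold some of the same sites, so these counts are not independent. These matches describe the letters and are not evidence of binding.

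The 6 libraries summed to between 995690 and 996186 TPM, and 15383 to 15905 genes reached 1 TPM. AFP, the fetal serum protein that marks hepatoblasts, stood at 71682 to 79063 TPM with DMSO and 63150 to 66804 with HFPO-TA, while ALB was at 101 to 129 and 54.1 to 73.5 TPM. Markers of other cells were also present. All 13 stellate and fibroblast markers were above 0 in every library, with VIM the highest (327 and 310 TPM, the means with DMSO and HFPO-TA) and LUM at 150.4 and 158 TPM, while LRAT, which marks stellate cells by retinoid storage, ran from 0.72 to 1.83 TPM over the 6 libraries. Endothelial markers were low (KDR highest, 30.4 and 31.1 TPM; VWF 0.30 and 0.17), as were cartilage markers (SNORC highest, 7.09 and 6.75 TPM), neural markers (STMN2 highest, 29.6 and 24.2) and pluripotency markers (TDGF1 highest, 25.1 and 29.98). Among biliary markers EPCAM was the highest, at 665 and 702 TPM. No member of these marker lists was at 0 in all 6 libraries. In such bulk RNA, fewer cells of a type and less RNA per cell cannot be told apart.

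Collagens made up 0.301% ± 0.058 (SD, n = 3) of the summed level in the DMSO libraries and 0.266% ± 0.087 (SD, n = 3) in those with HFPO-TA. By library the sums were 3616, 2472 and 2892 TPM in DMSO replicates 1, 2 and 3, and 3651, 2121 and 2172 TPM in HFPO-TA replicates 1, 2 and 3. The groups overlapped, and replicate 1 was the highest library in both. COL3A1 alone held 25.2% to 32.6% of the collagen sum in each library, and the 10 most abundant genes together held 90.7% to 92.0%. Those 10 were COL3A1, COL4A2, COL4A1, COL1A1, COL6A2, COL6A1, COL1A2, COL2A1, COL18A1 and COL5A1. The 13 collagen genes below the filter together made up 0.127% of the sum on average.

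**Figure D1:**
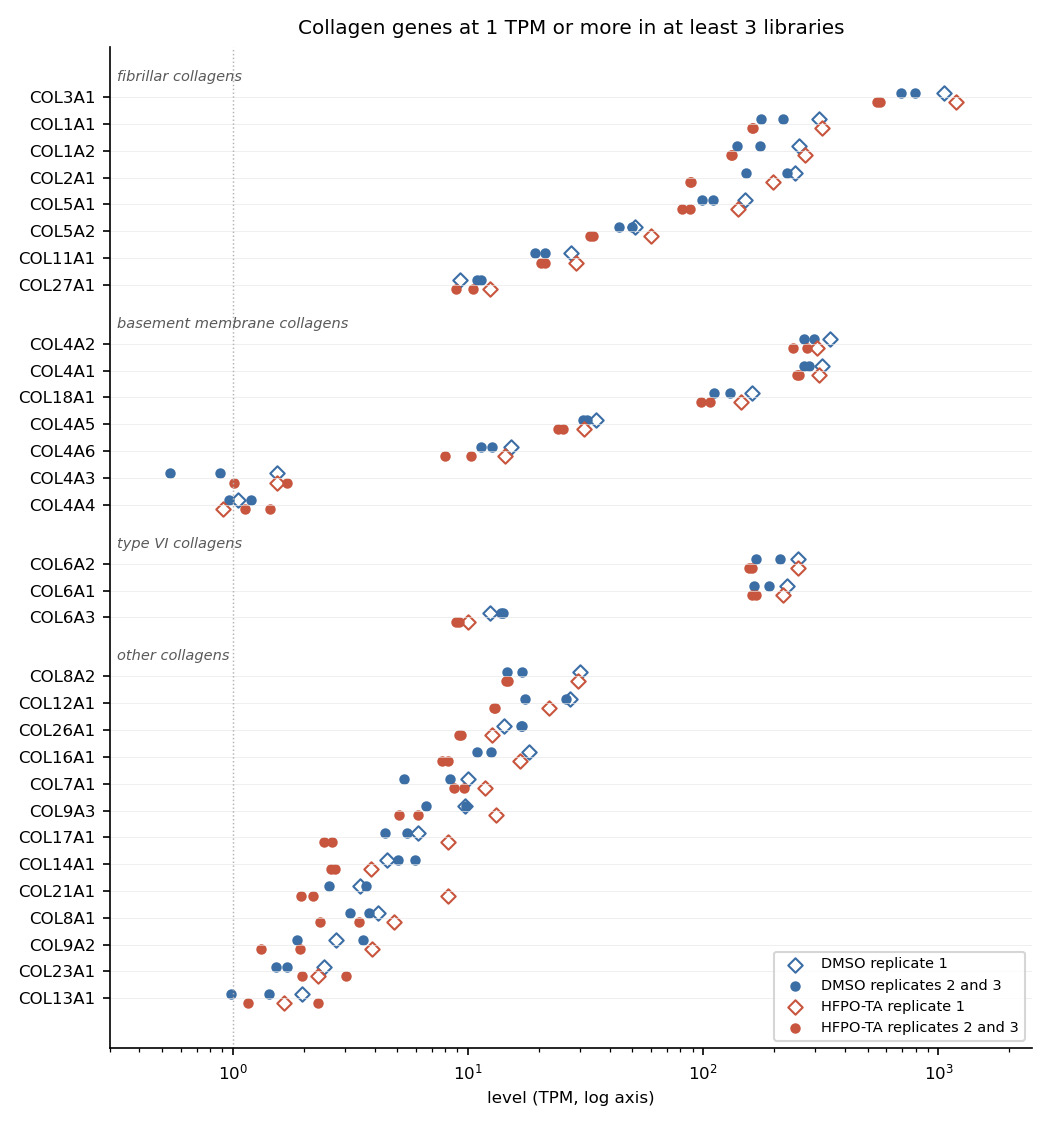
Level of each of the 31 collagen genes above 1 TPM in 3 or more libraries (x axis, TPM, log scale), grouped by class and ordered by mean. Blue points are DMSO and red points HFPO-TA libraries, open diamonds mark replicate 1, and the dotted line is 1 TPM; COL3A1 is the highest, between 547 and 1191 TPM, and replicate 1 lies to the right for most fibrillar genes.

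None of the 31 tested collagen genes passed the test between HFPO-TA and DMSO. The test was limma on log2(TPM + 1) over all 15664 genes at 1 TPM or more in 3 libraries, with a Benjamini-Hochberg adjusted p under 0.05; 0.492% of all tested genes passed it, 0.306% lower and 0.185% higher. At an unadjusted p under 0.05, 4 collagen genes were lower (COL6A3, COL26A1, COL14A1 and COL4A5) and 0 higher, against 6.56% lower and 5.45% higher of all tested genes. Fold changes are differences of mean log2(TPM + 1), HFPO-TA less DMSO, and the added 1 makes changes of low genes look smaller than they are. The median log2 fold change was -0.17 over the 31 genes, beside -0.01 over all tested genes. It lay below 0 for 23 of the 31 (24 with upper-quartile scaling, where COL27A1 turned), against 51.7% of all tested genes. In 3 of the 31 the libraries of the groups did not overlap, all 3 lower with HFPO-TA, where 17.9% of all tested genes did not overlap and 9.4% were lower without overlap. The 95% intervals of the fold changes had a median half-width of 0.53 on the log2 scale. They included 0 for 27 genes and reached neither -1 nor 1 for 22, so changes smaller than those widths are not shown to be absent.

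Replicate 1 stood apart in both groups, and it did so more for collagens than for genes at large. The header of each value column carries a letter that the labels do not explain and that differs between replicate 1 and replicates 2 and 3 in both groups. Of the 31 tested collagen genes, 20 had their highest value of the group in replicate 1 in both groups (7 of 8 fibrillar, 5 of 7 basement membrane, 2 of 3 type VI and 6 of 13 others), against 29.7% of all tested genes. The gap between replicate 1 and the mean of replicates 2 and 3 had a median of 0.33 on the log2 scale with DMSO and 0.60 with HFPO-TA for collagens, beside 0.08 and 0.08 for all tested genes. Stellate and fibroblast markers moved with it: their summed level was 637 TPM in DMSO replicate 1 against 559 and 594 in replicates 2 and 3, and 765 TPM in HFPO-TA replicate 1 against 476 and 485. Of the 10 tested members of that list, 8 were highest in replicate 1 in both groups. Summed endothelial and neural markers were also highest in replicate 1 of both groups. Endothelial sums were 61.84 TPM against 53.69 and 55.56 with DMSO, and 65.73 TPM against 47.15 and 50.25 with HFPO-TA. Neural sums were 58.01 TPM against 51.38 and 56.32, and 64.24 TPM against 41.44 and 41.48. Of the tested members, 1 of 7 endothelial and 3 of 4 neural were highest there in both groups. That endothelial member was KDR, at 39.42 TPM against 24.95 and 26.96 with DMSO, and 46.68 TPM against 24.04 and 22.48 with HFPO-TA. The median gap of the tested endothelial members lay below 0, at -0.18 with DMSO and -0.22 with HFPO-TA, so their sum does not stand for the list. Biliary and cartilage sums were highest in replicate 1 with HFPO-TA only, and the pluripotency sum in neither group. The summed hepatocyte and hepatoblast markers went the other way, at 111364 TPM in DMSO replicate 1 against 123523 and 123498, and 98727 TPM in HFPO-TA replicate 1 against 106300 and 104263; 0 of its 10 members were highest in replicate 1 in both groups. Between the treatments, 1 of those 10 was called by limma, lower with HFPO-TA (FGB, a fibrinogen chain named after its values were seen, adjusted p = 0.0104), and 0 of the 10 tested stellate and fibroblast markers were, beside 0.492% of all tested genes. The hepatocyte list had 5 of 10 called lower with a term for replicate 1 and 5 of 10 with replicates 2 and 3 alone, where 0.862% and 0.907% of all tested genes were called lower. In 6 of the 10 the groups did not overlap and HFPO-TA was lower, against 9.4% of all tested genes. The list did not move as one, since 3 of the 10 had a fold change above 0 (CEBPA, APOA1 and DLK1). CEBPA was higher without overlap, at 65.88 to 68.24 TPM with DMSO and 70.17 to 89.59 TPM with HFPO-TA. All 10 tested stellate and fibroblast markers had a fold change below 0 (median -0.14), as had 51.7% of all tested genes. The part of these markers in the collagen levels was not tested.

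**Figure D2:**
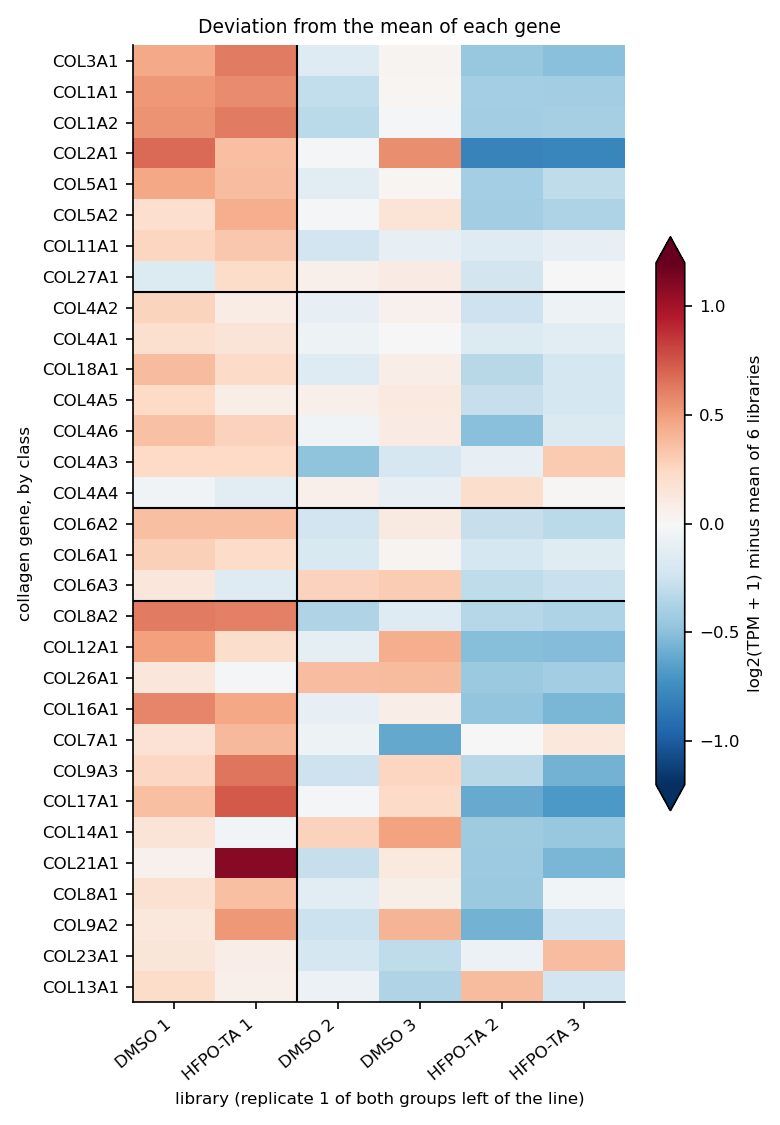
Each row is a collagen gene above the filter, each column a library, and the colour is the log2(TPM + 1) value minus the mean of that gene over 6 libraries (red above, blue below). Replicate 1 of both groups is left of the vertical line; red fills most of those 2 columns, and HFPO-TA replicates 2 and 3 are blue in most rows.

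The comparison was also made within these replicates. Between the replicate 1 libraries, 1 against 1, 18 of 31 collagen genes were lower with HFPO-TA, as were 50.4% of all tested genes, and the median difference was -0.03 on the log2 scale. Over replicates 2 and 3, 25 of 31 were lower, against 51.9% of all tested genes, and the median was -0.28. Both HFPO-TA libraries lay below both DMSO libraries in 20 of the 31, against 26.7% of all tested genes. This also held for 8 of the 10 tested stellate and fibroblast markers and 7 of the 10 hepatocyte and hepatoblast markers. The median differences of these 2 lists over replicates 2 and 3 were -0.34 and -0.22. Many collagen genes rose and fell together between libraries, so the genes in these counts are not independent observations. A limma fit of replicates 2 and 3 alone called 1 collagen gene lower, COL26A1, and 0 higher, with 1.42% of all tested genes called (0.907% lower and 0.511% higher). A fit of all 6 libraries with a term for replicate 1 against 2 and 3 called 0 of the 31, with 1.32% of all tested genes called, and gave 9 of them lower at an unadjusted p under 0.05 against 8.97% of all tested genes. Whether the treatment difference itself differed between replicate 1 and the others was not tested.

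**Figure D3:**
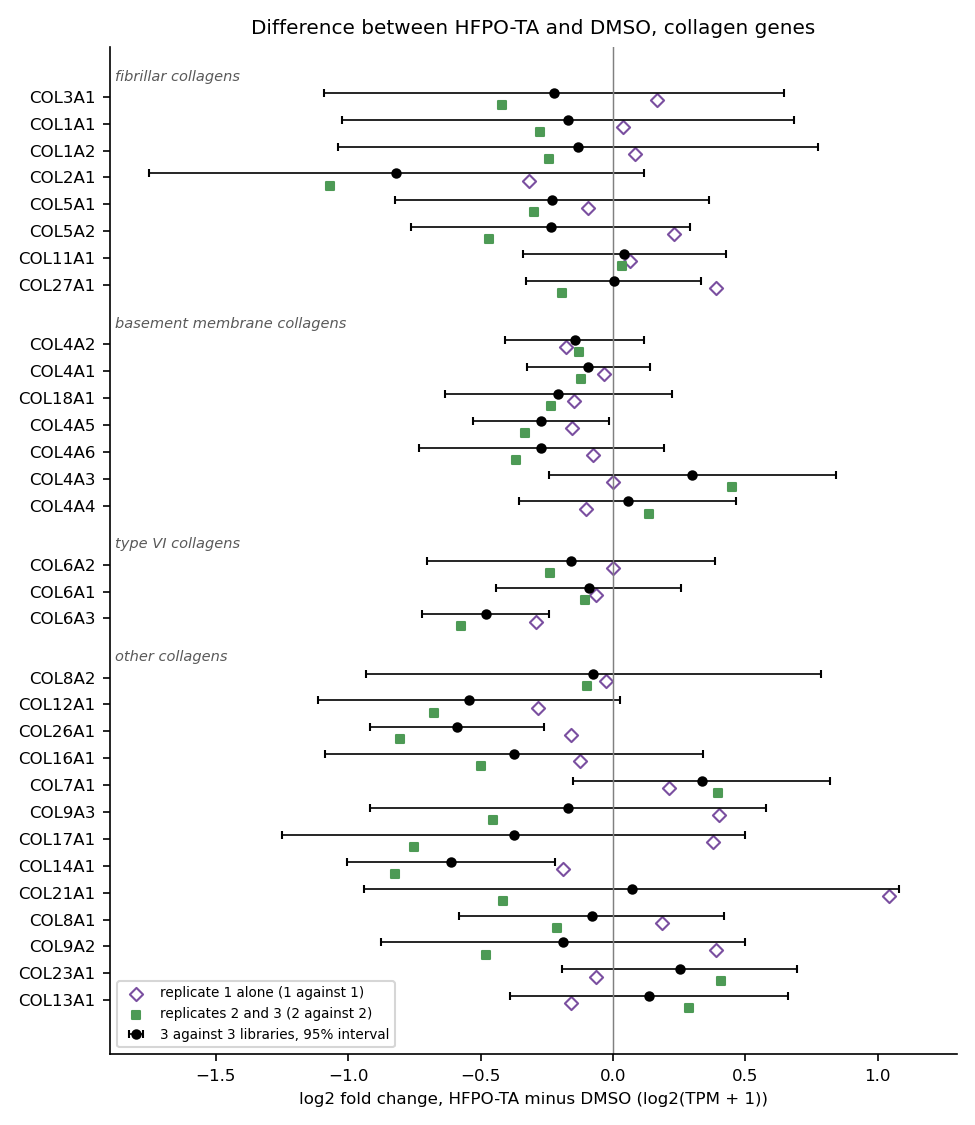
Log2 fold change of each tested collagen gene (x axis, log2(TPM + 1) with HFPO-TA less that with DMSO). Black points with bars are the limma estimates and 95% intervals over 3 against 3 libraries, purple diamonds the difference between the replicate 1 libraries and green squares that over replicates 2 and 3; the green squares lie below 0 for 25 of 31 genes and the diamonds for 18.

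The fibrillar collagens were the most abundant class, and 7 of the 8 tested were highest in replicate 1 in both groups, the exception being COL27A1. COL3A1, the chain of type III collagen, which forms fine fibres together with type I, stood at 1061, 696 and 794 TPM in DMSO replicates 1 to 3 and at 1191, 565 and 547 TPM with HFPO-TA. The replicate 1 libraries were the 2 highest, and the HFPO-TA libraries of replicates 2 and 3 were the 2 lowest (log2 fold change -0.22, SE 0.35, limma adjusted p = 0.868). The difference was 0.17 between the replicate 1 libraries and -0.42 over replicates 2 and 3 (adjusted p = 0.0614 in limma on those 4 libraries). COL1A1, which encodes the major chain of type I collagen, the main fibril protein of bone, skin and scar, was at 309.6, 175 and 219 TPM with DMSO and 318, 162 and 161 TPM with HFPO-TA. Its partner chain COL1A2 was at 255, 139.8 and 174 TPM and 271, 131 and 133 TPM. The COL1A1 to COL1A2 ratio ran from 1.18 to 1.26 over the 6 libraries, a narrow range beside that of either level. The protein holds a pair of COL1A1 chains for each COL1A2 chain. Their fold changes were -0.17 (SE 0.34) and -0.13 (SE 0.36), with adjusted p of 0.899 and 0.929 in limma, and each lay above 0 when DMSO replicate 1 was left out.

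COL2A1, the chain of type II collagen, which is best known from cartilage and is also made in embryonic epithelia, had the lowest fold change of the 31 genes with all 6 libraries. Its levels were 246, 152 and 227 TPM with DMSO and 197, 87.6 and 88.4 TPM with HFPO-TA (log2 fold change -0.82, SE 0.37, limma adjusted p = 0.47). The groups overlapped through HFPO-TA replicate 1. The difference was -0.32 between the replicate 1 libraries and -1.07 over replicates 2 and 3, where limma on 4 libraries gave an adjusted p of 0.0982. ACAN, the cartilage proteoglycan, was at 1.29 to 2.47 TPM over the same libraries, and COL10A1, of growth plate cartilage, at 0.02 TPM or less. COL11A1, a chain of the fibrils that accompany type II, was at 27.4, 19.3 and 21.3 TPM and 28.7, 20.4 and 21.2 TPM, nearly level between the groups.

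COL5A1 and COL5A2 encode the chains of type V collagen, which sits inside type I fibrils and sets their width. COL5A1 was at 149.8, 98.6 and 110.5 TPM with DMSO and 140.3, 81.4 and 87.9 TPM with HFPO-TA. COL5A2 was at 51.2, 43.9 and 49.6 TPM and 60.2, 32.8 and 34.1 TPM, so its HFPO-TA libraries lay on both sides of all DMSO libraries. Without HFPO-TA replicate 1, limma called COL5A2 lower (log2 fold change -0.51, adjusted p = 0.0444, with 1.86% of all tested genes called and 1.26% called lower), against an adjusted p of 0.75 with all 6 libraries. COL27A1, a fibrillar chain of growing cartilage, was between 8.84 and 12.4 TPM in all libraries. COL11A2, COL5A3 and COL24A1 were below the filter, at 0.75 TPM or less.

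**Figure D4:**
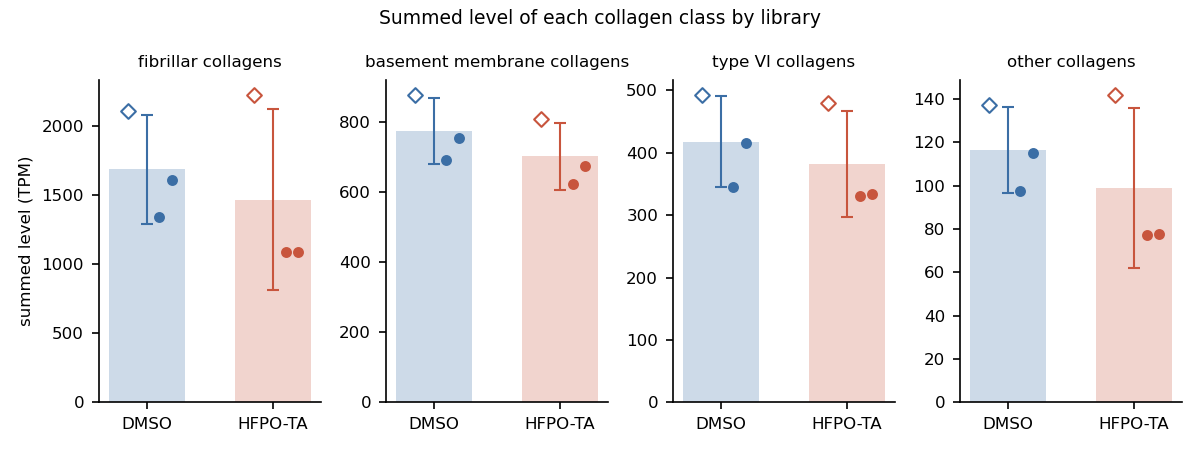
Summed level of each collagen class (y axis, TPM, starting at 0) in DMSO (blue) and HFPO-TA (red). Bars are means of 3 libraries, error bars the SD, open diamonds replicate 1 and filled points replicates 2 and 3; replicate 1 is the highest library of each group in all 4 classes, and the groups overlap in each.

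Fibrillar genes summed to 2110 TPM in DMSO replicate 1 against 1337 and 1606 in the others, and to 2220 TPM in HFPO-TA replicate 1 against 1089.8 and 1084. Basement membrane collagens varied less, from 691 to 877 TPM with DMSO and from 623 to 810.1 TPM with HFPO-TA. Type VI genes ran from 346 to 492 TPM and from 331 to 479.5 TPM, and the others from 97.6 to 137 and from 77.3 to 142 TPM.

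Among the basement membrane collagens, COL4A1 and COL4A2, the chains found in nearly every basement membrane, were at like levels. COL4A1 was at 319, 269 and 281 TPM with DMSO and 312, 249.7 and 256 TPM with HFPO-TA, and COL4A2 at 345, 267 and 296 TPM and 305, 241 and 275 TPM. Their ratio stayed between 0.926 and 1.04. They are also the first pair whose windows are printed above. The 95% intervals of their fold changes were among the narrowest, -0.32 to 0.14 for COL4A1 and -0.41 to 0.12 for COL4A2 on the log2 scale (limma adjusted p = 0.785 and 0.69). COL4A5 and COL4A6, which share the other printed stretch and form networks in some epithelial and smooth muscle basement membranes, both had a fold change of -0.27 (SE 0.11 and 0.20). COL4A5 was at 34.9, 30.7 and 32.0 TPM with DMSO and 31.3, 24.1 and 25.4 TPM with HFPO-TA, where only HFPO-TA replicate 1 reached into the DMSO range (limma adjusted p = 0.386). COL4A6 was lower, at 15.2, 11.4 and 12.6 TPM and 14.4, 7.98 and 10.3 TPM. The COL4A5 to COL4A6 ratio ran more widely, from 2.17 to 3.02 over the libraries. Whether the shared stretches bear on the levels of either pair was not tested. COL4A5 and COL4A1 kept a ratio of 0.109 to 0.114 with DMSO and 0.0967 to 0.1002 with HFPO-TA. These groups did not overlap, but the ratio was picked out among 8 after its values were seen and is given without a test.

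COL4A3 and COL4A4, which join COL4A5 in the filter of the kidney, lay close to the 1 TPM cutoff, at 0.54 to 1.69 TPM and 0.91 to 1.44 TPM. Their fold changes were 0.30 and 0.06 (limma adjusted p = 0.69 and 0.936). Just across the filter on low values lay COL19A1, with 1 library above 1 TPM (1.02), COL22A1 at 0.81 at most and COL11A2 at 0.75 at most. COL18A1, whose protein carries the endostatin fragment and which hepatocytes are known to make, was at 161, 111 and 130.5 TPM with DMSO and 145, 97.8 and 106.6 TPM with HFPO-TA (log2 fold change -0.21, SE 0.18, limma adjusted p = 0.729). Its exons share 1401 bases with those of SLC19A1 on the other strand, a gene with means of 9.88 TPM with DMSO and 7.40 TPM with HFPO-TA. Whether the counting used strand is not given in the sources used here, and without strand the reads of such a pair cannot be told apart. COL15A1, its close relative, was below the filter at 0.32 TPM or less.

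Type VI collagen is built from chains of COL6A1, COL6A2 and COL6A3. COL6A3 had the smallest p of the collagen genes with all 6 libraries. It was at 12.4, 13.7 and 14.1 TPM with DMSO and 9.97, 8.86 and 9.14 TPM with HFPO-TA, and the groups did not overlap. The fold change was -0.48 (SE 0.10, 95% interval -0.72 to -0.24), with a limma p of 0.00172 before and 0.11 after adjustment over all genes. COL6A3 was not highest in replicate 1 in both groups, and its difference was -0.29 between the replicate 1 libraries and -0.57 over replicates 2 and 3 (adjusted p = 0.0659 in limma on those 4 libraries, 0.0733 with the term for replicate 1). COL6A1 and COL6A2, which lie together on chromosome 21, were far higher, at 160.5 to 227 TPM and 157 to 252 TPM, and were highest in replicate 1 in both groups. Their fold changes were -0.09 (SE 0.15) and -0.16 (SE 0.23), and both groups overlapped. COL6A3 was thus at 0.0547 to 0.0836 of COL6A1 with DMSO and at 0.0459 to 0.0552 of it with HFPO-TA. COL6A5 and COL6A6, which can take the place of COL6A3, were at 0.24 TPM or less.

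Of the remaining collagens, 13 passed the filter and 7 did not. COL26A1, a secreted collagen with short helical stretches, was at 14.3, 16.9 and 17.0 TPM with DMSO and 12.7, 9.18 and 9.34 TPM with HFPO-TA, without overlap. Its fold change was -0.59 (SE 0.14, limma adjusted p = 0.142), with a difference of -0.16 between the replicate 1 libraries and -0.80 over replicates 2 and 3. limma called it in 2 of 17 alternative fits, without HFPO-TA replicate 1 (adjusted p = 0.0339) and with replicates 2 and 3 alone (adjusted p = 0.0344), and its adjusted p over these alternatives reached 0.482.

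The fibril-associated collagens lie on the surface of fibrils and link them to other matrix. COL14A1 was at 4.54, 5.03 and 5.97 TPM with DMSO and 3.86, 2.71 and 2.62 TPM with HFPO-TA, again without overlap (log2 fold change -0.61, SE 0.17, limma adjusted p = 0.201). Its difference was -0.19 between the replicate 1 libraries and -0.82 over replicates 2 and 3 (adjusted p = 0.0744 in limma on those 4 libraries). COL12A1, its relative, was at 27.2, 17.5 and 26.02 TPM and 22.2, 13.03 and 12.9 TPM (log2 fold change -0.55, SE 0.24, limma adjusted p = 0.435). These groups overlapped through HFPO-TA replicate 1 and DMSO replicate 2. COL16A1 was at 10.9 to 18.2 TPM with DMSO and 7.73 to 16.6 TPM with HFPO-TA. COL21A1 was at 2.57 to 3.67 TPM with DMSO, while HFPO-TA replicate 1 stood at 8.21 and the other 2 at 2.18 and 1.95 TPM. COL9A3 and COL9A2, chains of the type IX collagen that coats cartilage fibrils, also had their highest library in HFPO-TA replicate 1, at 13.1 and 3.91 TPM, and COL9A1, the third chain of that type, was at 0.17 TPM or less.

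COL17A1, the transmembrane collagen that anchors epithelial cells to their basement membrane, was at 6.11, 4.44 and 5.51 TPM with DMSO and 8.23, 2.64 and 2.44 TPM with HFPO-TA, on both sides of the DMSO range (log2 fold change -0.37, SE 0.37, limma adjusted p = 0.764). COL7A1, which forms the anchoring fibrils beneath that membrane, had a fold change of 0.34 (SE 0.21, limma adjusted p = 0.597). It was at 9.99, 8.35 and 5.35 TPM with DMSO and 11.7, 8.69 and 9.61 TPM with HFPO-TA. The other transmembrane collagens above the filter, COL23A1 and COL13A1, were at 0.98 to 3.03 TPM over all libraries, with fold changes of 0.25 and 0.14. COL8A2, a chain of the short network-forming type VIII, was also highest in replicate 1 in both groups, at 30.02, 14.6 and 17.0 TPM with DMSO and 29.5, 14.8 and 14.5 TPM with HFPO-TA. COL8A1 was at 2.34 to 4.85 TPM. Below the filter were COL19A1, COL22A1, COL25A1, COL20A1, COL28A1, COL9A1 and COL10A1, and COL24A1, COL9A1 and COL10A1 were listed at 0 in 1 to 3 libraries.

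The machinery of collagen assembly and turnover was compared in 9 lists of genes. Over all lists 1 member was called, MEP1A, and 0.492% of all tested genes were called. Genes for modification of the chains had 0 of 14 tested members called and a median log2 fold change of -0.01, and those for folding, export and regulation 0 of 12 and a median of 0.02, beside -0.01 for all tested genes. P4HB, a subunit of the prolyl hydroxylase, was at 941 to 972 TPM with DMSO and 909 to 990.2 TPM with HFPO-TA. COLGALT1, which adds galactose to collagen, was at 64.0 to 71.6 TPM and 54.4 to 59.5 TPM (limma adjusted p = 0.242). SERPINH1, the collagen chaperone HSP47, was at 803 to 981 and 802 to 876 TPM, and MIA3, which loads collagen into transport carriers, at 28.9 to 33.6 and 34.4 to 37.6 TPM (limma adjusted p = 0.514). The gap of replicate 1 over replicates 2 and 3 had a median of 0.14 with DMSO and 0.05 with HFPO-TA on the log2 scale for the modification list, of which 6 of 14 members were highest in replicate 1 in both groups. For folding and export it was 0.21 and 0.10, with 8 of 12 members highest there in both groups, SERPINH1 among them.

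MEP1A, the alpha subunit of meprin, a brush border protease that can trim procollagen, fell from 76.9, 67.4 and 79.7 TPM to 52.4, 50.3 and 46.4 TPM. The log2 fold change was -0.58 (SE 0.09, limma adjusted p = 0.0418), without overlap. limma called it in 5 of 17 alternative fits. The 12 fits without the call included both other scalings (adjusted p = 0.0572 and 0.0538), 5 of the 6 fits without a library, the exception being that without HFPO-TA replicate 1, and that of replicates 2 and 3 alone (adjusted p = 0.0617), and its adjusted p over these alternatives reached 0.227. BMP1, the main procollagen C-proteinase, was at 36.8 to 41.9 TPM and 41.7 to 49.6 TPM.

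Crosslinking enzymes had 0 of 7 tested members called (median -0.18), and 6 of the 7 were highest in replicate 1 in both groups (median gaps 0.34 and 0.45). LOX was at 113 to 124 and 109.6 to 118 TPM and LOXL2 at 45.6 to 61.2 and 31.9 to 60.3 TPM. In 1 of 17 alternative fits limma called LOXL2 lower (adjusted p = 0.044), and its adjusted p over these alternatives reached 0.882. Breakdown genes, a list that holds the protease inhibitors TIMP1, TIMP2, TIMP3 and TIMP4 beside the proteases, had 0 of 14 called (median -0.10). MMP1, the interstitial collagenase that cuts type I and III fibrils, was at 5.84, 7.86 and 7.75 TPM with DMSO and 3.69, 2.96 and 3.26 TPM with HFPO-TA (log2 fold change -0.91, SE 0.15, limma adjusted p = 0.0548). It was called lower in 4 of 17 alternative fits, and its limma adjusted p over these reached 0.287. CTSB, a lysosomal protease, was at 1157 to 1249 and 1252 to 1329 TPM. Collagen receptors had 0 of 9 called (median -0.16), with ITGB1 at 217 to 232 and 221 to 229 TPM and ITGA11 at 1.53 to 2.50 and 3.11 to 3.98 TPM (limma adjusted p = 0.291).

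Basement membrane partners had 0 of 15 called (median -0.09), and 11 of the 15 were highest in replicate 1 in both groups. LAMB1, a laminin chain, was at 496 to 596 and 497 to 607 TPM. LAMB3, a chain of the epithelial laminin that binds type VII anchoring fibrils, was at 278, 223 and 259.8 TPM with DMSO and 175, 129 and 129 TPM with HFPO-TA (log2 fold change -0.82, SE 0.14, limma adjusted p = 0.0601), without overlap. It was called lower in 5 of 17 alternative fits, as many as MEP1A, and its limma adjusted p over these reached 0.287. With the term for replicate 1 limma called LAMB3 (adjusted p = 0.0109) and MMP1 (adjusted p = 0.045), MEP1A and TNC, all lower, with 0.862% of all tested genes called lower. TNC is named after its values were seen. Fibril-binding matrix proteins had 0 of 14 called (median -0.14), with FN1 at 3933 to 4915 and 3250.2 to 4252 TPM and FMOD at 121 to 135 and 145 to 159 TPM. Of these 14, 12 were highest in replicate 1 in both groups. The TGFB pathway, a main inducer of fibrillar collagens, had 0 of 17 called (median -0.03), with SMAD4 at 22.8 to 24.6 and 24.8 to 32.7 TPM. TGFBI, a matrix protein induced by TGFB, was at 249.8 to 308 and 146 to 272 TPM (log2 fold change -0.61, limma adjusted p = 0.419). limma called it lower in 2 of 17 alternative fits, without HFPO-TA replicate 1 (log2 fold change -0.91, adjusted p = 0.00963) and with replicates 2 and 3 alone (-0.83, adjusted p = 0.0151), and its adjusted p over these alternatives reached 0.736.

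**Figure D5:**
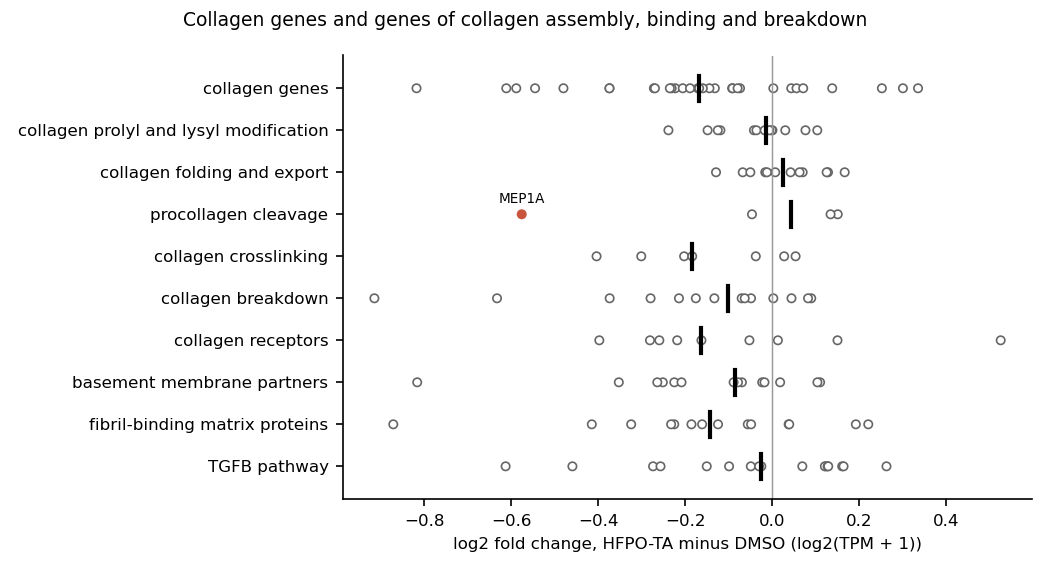
Log2 fold change of the 31 collagen genes and of the tested members of 9 lists of genes for collagen assembly, binding and breakdown (x axis, log2(TPM + 1) with HFPO-TA less that with DMSO). Each circle is a gene, black bars are medians, and the filled circle is the called gene, MEP1A, at -0.58; the medians lie between -0.18 and 0.04.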

How the data were processed

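RNA from 6 libraries was sequenced. Per the submitters' processing notes the tools included HISAT, Bowtie2 and RSEM and the build was GRCh38.p13, and neither versions nor roles are given there. The values the authors deposited are headed FPKM, but every library sums to nearly the same total (995690 to 996186), so they were read as TPM deposited by the authors. Since TPM values do not carry the read totals, counting errors could not be worked out. Reads shared between similar or overlapping genes are assigned upstream in a way not given in the sources used here.

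limma 3.58.1 in R 4.3.3 was fitted to log2(TPM + 1) of the 15664 genes that reached 1 TPM in at least 3 of the libraries, with treatment as the only term and a trended, robust variance, 2-sided, with Benjamini-Hochberg adjustment over all of them. Intervals are 95% from the same fit. The collagen genes and all lists were chosen with earlier results of these data known. Named genes are every collagen gene above the filter. From each other list they are called members, or otherwise the member with the highest mean and that with the smallest p. BMP1, ACAN, LUM, LRAT, VWF, ALB, APOA1, CEBPA, DLK1, FGB and TNC were added after their values were seen. Positions came from GENCODE 29, which held all 44 collagen genes, and promoter windows from RefSeq (GRCh38.p14). Figures used matplotlib 3.10.9 in Python 3.11.15. On simulated data for HFPO-TA against DMSO (15664 genes, 200 changed, 10 runs, independent noise) the fit recovered 21.6% of changes of 0.5 on the log2 scale, 74.1% of 1 and 93.4% of 2. The changed genes were drawn from all but the lowest of the tested genes, without a gap for replicate 1. These rates therefore need not hold for collagens. Alternatives covered pseudocount, filter, variance, scaling, replicate terms and each library left out.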

Additional observations from a re-analysis of the deposited data

How the results depend on the processing

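Collagen genes called numbered 0 in 15 of the 17 alternative fits, 2 without HFPO-TA replicate 1 (COL5A2 and COL26A1) and 1 with replicates 2 and 3 alone; leaving out 1 library gave 0 to 2. Among all tested genes 77 were called, against 10 without a filter, 29 with a minimum of 0.1 TPM, 11 with an untrended variance, 32 and 39 with median-of-ratios and upper-quartile scaling, 207 with a term for replicate 1, 222 with replicates 2 and 3 alone and 6 to 291 without a library. Members of the partner lists called numbered 1, against 0 with no filter, 0 at the 0.1 TPM minimum, 0 with an untrended variance, 0 with either scaling, 3 with 1 TPM in all 6 libraries, 4 with the term for replicate 1, 4 with replicates 2 and 3 alone and 0 to 7 without a library. The cause was not tested. The median over the tested collagens lay between -0.46 and -0.04 without a library and the log2 ratio of summed collagen, -0.21 over all libraries, between -0.46 and -0.06. With the replicate number as a block (replicate block) 30 of all tested genes, 0 collagens and 1 partner, LAMB3 (adjusted p = 0.0392), were called and MEP1A was not (adjusted p = 0.0788). Deviations of same-numbered libraries correlated at 0.184, 0.123 and 0.0282, and those of libraries with different numbers at -0.158 to 0.0679. HFPO-TA replicates 1 and 2 correlated best with the DMSO library of the same number, and HFPO-TA replicate 3 with DMSO replicate 2. The numbers were not taken to pair the samples.

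Signs turned for genes that were not called. With upper-quartile scaling COL27A1 was at -2.4e-05 and P4HB at -0.0016; with replicates 2 and 3 alone COL27A1 was at -0.19, COL21A1 at -0.41 and ITGB1 at -0.019. Without a library the lowest and highest values were -0.037 and 0.14 for COL4A4, -0.50 and 0.048 for COL1A1, -0.48 and 0.10 for COL1A2, -0.11 and 0.18 for COL11A1, -0.11 and 0.11 for COL27A1, -0.39 and 0.22 for COL8A2, -0.53 and 0.072 for COL9A3, -0.46 and 0.36 for COL21A1, -0.28 and 0.12 for COL8A1, -0.49 and 0.049 for COL9A2, -0.017 and 0.29 for COL13A1, -0.23 and 0.029 for COL6A1, -0.024 and 0.038 for P4HB, -0.13 and 0.012 for SERPINH1, -0.063 and 0.0020 for LOX, -0.0062 and 0.043 for ITGB1 and -0.072 and 0.10 for LAMB1.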
